A study of Mus musculus with 49 samples.

Results

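Toll-like receptors are the pattern recognition receptors of innate immunity, and their transcripts were followed here in the neocortex of mice that express a cytoplasmic form of human TDP-43. The members were 9 genes read from the count table by symbol together with their shared adaptor, namely Tlr1, Tlr2, Tlr3, Tlr4, Tlr6, Tlr7, Tlr9, Tlr13, the co-receptor Cd14 and Myd88, which makes 10 of the 45252 genes listed. All 10 passed the filter on low counts, which left 18220 genes to test. Values are given as CPM, the counts of a gene scaled to a common library size and corrected for library composition, from 1 library per mouse.

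The table holds 49 mice in 4 groups, all from crosses of C57BL/6J with C3H/HeJ. The 32 bigenic rNLS8 mice carried the NEFH-tTA driver, active in neurons that express the neurofilament heavy chain, and the tetO-hTDP-43ΔNLS transgene, which lacks the nuclear localization signal. Of these, 10 mice received PBS (TDP-PBS), 10 were vaccinated with TDP-43 peptides 10 and 12 (TDP-10+12) and 12 with peptide 15, which carries the phosphorylated C-terminal serines (TDP-15). The controls were 17 monogenic littermates given PBS (ctrl-PBS), which do not express the transgene after doxycycline withdrawal. Every mouse was bred on doxycycline, entered the vaccination schedule at 8 weeks of age, was taken off doxycycline at 25.5 weeks and was sacrificed at 28.5 weeks, 3 weeks after induction, so age and doxycycline history were shared by all groups. The peptides were given as ovalbumin conjugates, 40 µg per injection, with Alhydrogel and a CpG oligonucleotide. In the PBS groups PBS replaced the peptide conjugates, and whether they received the adjuvants is not stated.

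Toll-like receptors sit at the cell surface or in endosomes and signal through a cytoplasmic TIR domain. Tlr2 pairs with Tlr1 or Tlr6 to bind bacterial lipopeptides, Tlr4 binds lipopolysaccharide with the help of Cd14, and the endosomal members sense nucleic acids. Tlr3 binds double-stranded RNA, Tlr7 single-stranded RNA, Tlr9 unmethylated CpG DNA and Tlr13 bacterial ribosomal RNA. Nearly all of them recruit Myd88, which assembles a complex of IRAK kinases and Traf6 that activates NF-κB, whereas Tlr3 uses the adaptor Ticam1 (TRIF). In the brain these receptors are mainly transcribed by microglia, and Tlr3 also by other cells. The C3H/HeJ strain carries an inactivating change in Tlr4, and gene counts do not tell the parental alleles apart.

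The members lie on 7 chromosomes. In the RefSeq annotation of GRCm38.p6, Tlr1 (chr5:64924680-64933600) and Tlr6 (chr5:64953092-64970942) are neighbours on the minus strand and are close paralogs, so reads from sequence they share could have been split between them. Tlr2 is at chr3:83836272-83841824, Tlr4 at chr4:66827551-66846581, Tlr3 at chr8:45395665-45411075, Tlr9 at chr9:106222598-106226876 and Myd88 at chr9:119335934-119340018. Tlr13 (chrX:106143275-106160493) and Tlr7 (chrX:167303380-167330574) are X-linked. Exons of Myd88 overlap those of Acaa1a on the opposite strand, and exons of Tlr3 overlap those of Gm45542 on the opposite strand. The strand setting of the counting is not given, so reads from these overlaps could have been assigned to either gene.

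Start-site windows from RefSeq (GRCm38.p6, 250 bases before to 50 bases after a start) were found for 7 members, in 9 windows, and not for Tlr4, Tlr7 or Cd14. The starts used for Tlr9, Tlr13 and Myd88 are the outer ends of the gene intervals given above. Those used for Tlr1, Tlr2, Tlr3 and Tlr6 lie inside their intervals, so bases before them can still belong to the annotated gene. The windows of Tlr2 and Tlr1, which had the largest fold changes among the members, of the CpG receptor Tlr9 and of Myd88, which passed in no comparison, are printed in the direction of transcription. Capitals mark matches on either strand to 3 motifs, the NF-κB consensus, the PU.1 core GAGGAA and the interferon response (ISRE) core GAAANNGAAA. The windows are Tlr2 at chr3:83841559-83841858 (minus), Tlr1 at chr5:64933509-64933808 (minus), Tlr9 at chr9:106222348-106222647 (plus) and Myd88 at chr9:119339969-119340268 (minus).
Tlr2: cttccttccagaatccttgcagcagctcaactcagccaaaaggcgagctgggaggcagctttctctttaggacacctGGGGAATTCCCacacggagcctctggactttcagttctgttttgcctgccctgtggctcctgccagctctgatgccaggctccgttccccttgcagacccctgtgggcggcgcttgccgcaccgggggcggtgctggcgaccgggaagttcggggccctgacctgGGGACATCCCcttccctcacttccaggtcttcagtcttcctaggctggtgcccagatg
Tlr1: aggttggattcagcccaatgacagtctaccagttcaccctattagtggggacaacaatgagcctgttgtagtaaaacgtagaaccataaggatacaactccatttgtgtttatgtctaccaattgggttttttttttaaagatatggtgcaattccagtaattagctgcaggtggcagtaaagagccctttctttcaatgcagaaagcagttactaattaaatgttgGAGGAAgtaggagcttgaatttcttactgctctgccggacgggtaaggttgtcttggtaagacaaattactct
Tlr9: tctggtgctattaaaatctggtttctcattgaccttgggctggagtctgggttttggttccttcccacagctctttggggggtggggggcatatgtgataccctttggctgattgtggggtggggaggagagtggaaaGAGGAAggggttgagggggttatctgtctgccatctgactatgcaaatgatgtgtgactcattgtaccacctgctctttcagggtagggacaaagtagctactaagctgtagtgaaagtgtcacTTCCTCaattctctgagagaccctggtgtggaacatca
Myd88: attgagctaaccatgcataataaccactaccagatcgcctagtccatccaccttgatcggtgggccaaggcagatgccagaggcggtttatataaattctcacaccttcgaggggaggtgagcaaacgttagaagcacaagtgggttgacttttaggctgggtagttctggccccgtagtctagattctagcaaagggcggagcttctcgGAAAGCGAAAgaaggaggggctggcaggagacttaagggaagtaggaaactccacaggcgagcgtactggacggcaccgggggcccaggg
The Tlr2 window held 4 matches to the NF-κB consensus and none to the other motifs. Of these matches, 3 overlap, including the same bases read on either strand, between bases -173 and -163, counted from the start site as base 0, and the other lies at -8 to 1. Tlr1 had 1 PU.1 core at -23 to -18 and Tlr9 had 2, at -112 to -107 and, on the opposite strand, at 12 to 17. Myd88 had 1 ISRE core at -40 to -31. Elsewhere, 1 window of Tlr6 had 2 overlapping ISRE cores, Tlr3 had 1 NF-κB match and Tlr13 had 1 PU.1 core, while the second windows of Tlr1 and Tlr6 had no match. All matches in the windows of Tlr1, Tlr2, Tlr3 and Tlr6 lie within the annotated gene intervals. Over all 32851 windows, 4.51% held the NF-κB consensus, 28.3% the PU.1 core and 3.44% the ISRE core. A match describes letters only, and no binding was measured.

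Libraries held 17775738 to 21033608 counts, so that 3 counts, the smallest level taken as detected, corresponded to 0.139 to 0.165 CPM, a limit that covers counting error only. No pair of libraries within a group was a copy, since the chi-square of their counts per degree of freedom was at least 7.26. The label of cerebral cortex was checked against its markers, and in every library cortical neuron markers summed to at least 2030 CPM, oligodendrocyte markers to at least 2380 CPM and astrocyte markers to at least 587 CPM. Choroid plexus genes were high in 4 libraries (Ttr above 1000 CPM in TDP-PBS animal 26, TDP-10+12 animals 51 and 200, and TDP-15 animal 243), and neutrophil genes in 3 (Ngp above 5 CPM in TDP-PBS animal 26 and ctrl-PBS animals 71 and 137).

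**Figure D1:**
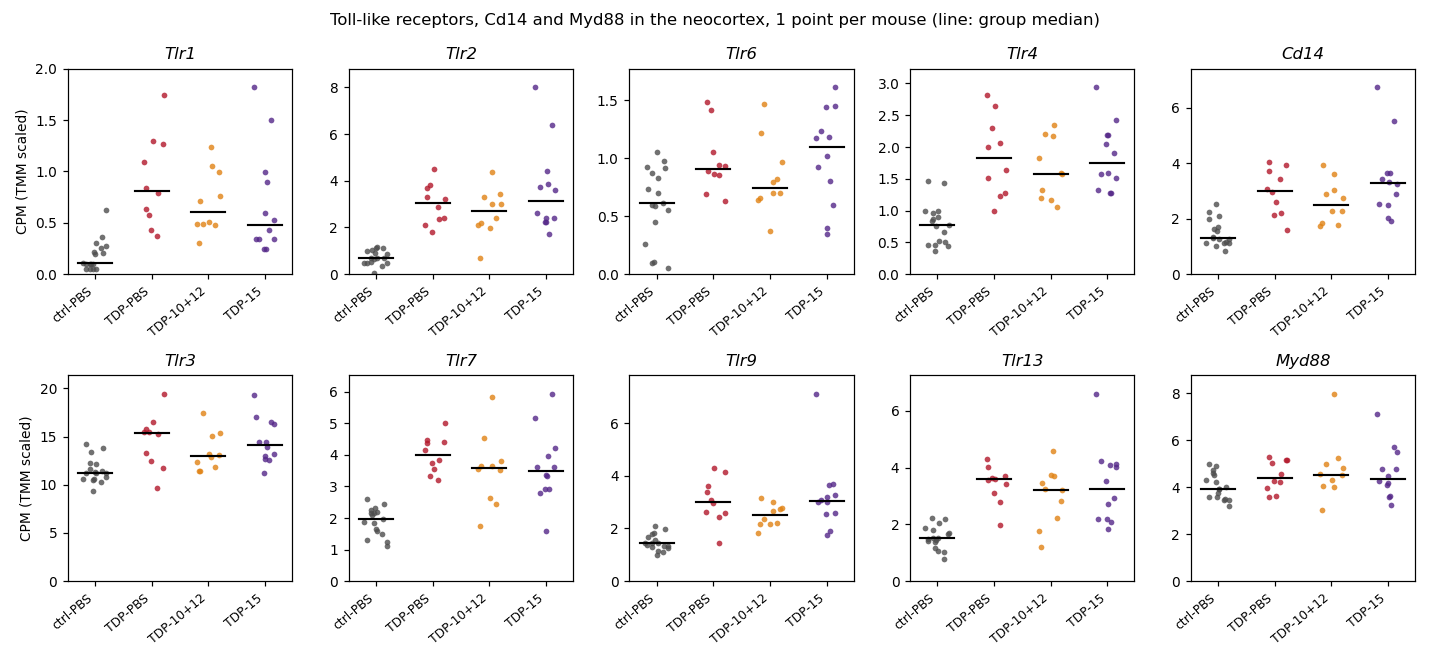
Level of each member in CPM (y axis, each panel from 0 on its own linear scale) in the 17 ctrl-PBS, 10 TDP-PBS, 10 TDP-10+12 and 12 TDP-15 mice, with 1 point per mouse and a line at the group median. Tlr2 and Tlr7 of all 10 TDP-PBS mice lie above all 17 ctrl-PBS mice, whereas the Myd88 points of the groups overlap.

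In TDP-PBS mice, 9 of the 10 members were higher than in ctrl-PBS mice and none was lower (edgeR quasi-likelihood test, Benjamini-Hochberg adjusted p under 0.05), with Myd88 as the exception. Over all genes tested, 21.9% were called higher and 21.6% lower. The median log2 fold change of the 10 members was 1.06, against -0.000388 over all genes. The changes ran from 2.25 for Tlr1 to 0.33 for Tlr3 among those called. In TDP-10+12 mice 8 members were higher than in the same ctrl-PBS mice and none was lower (median 0.85), beside 20.8% of all genes called higher and 20% called lower. In TDP-15 mice 9 were higher and none was lower (median 1.13), beside 23.6% higher and 23.2% lower. The 3 comparisons share the 17 ctrl-PBS mice and are therefore not independent. TDP-10+12 and TDP-15 mice differ from ctrl-PBS mice in both genotype and vaccination, and no vaccinated monogenic mice were sequenced. Genotype and vaccination therefore cannot be told apart in those comparisons. In bulk tissue, more cells of a type and more RNA per cell cannot be told apart.

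Among the lipopeptide receptors, Tlr2 had the clearest separation. It ranged from 0.0503 to 1.15 CPM with a median of 0.691 in ctrl-PBS mice and from 1.81 to 4.52 CPM with a median of 3.06 in TDP-PBS mice. All 10 TDP-PBS mice lay above the highest ctrl-PBS mouse. In TDP-15 mice Tlr2 ranged from 1.71 to 8.01 CPM with a median of 3.12, and all 12 lay above the controls. In TDP-10+12 mice it ranged from 0.703 to 4.38 CPM with a median of 2.70, and 9 of 10 mice lay above the controls. The log2 fold changes against ctrl-PBS were 2.06 ± 0.24 (SE, adjusted p = 6.57e-10, edgeR) in TDP-PBS, 1.87 ± 0.24 (9.68e-09) in TDP-10+12 and 2.33 ± 0.23 (3.79e-12) in TDP-15. Of all genes tested, 2.31% had every TDP-PBS mouse above every ctrl-PBS mouse, and among the members Tlr2 and Tlr7 did. For TDP-10+12 the share was 2.23% and no member did, and for TDP-15 it was 2.45% and only Tlr2 did.

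Tlr1, the partner of Tlr2 for triacylated lipopeptides, had the lowest level per exon length in the controls. It ranged from 0.0519 to 0.621 CPM in ctrl-PBS mice with a median of 0.104, and 9 of the 17 mice had 3 counts or fewer. In TDP-PBS mice it ranged from 0.374 to 1.74 CPM (median 0.813), in TDP-10+12 from 0.301 to 1.24 (median 0.609) and in TDP-15 from 0.244 to 1.82 (median 0.480). Every one of the 32 rNLS8 mice lay above the control median, and 16 of them lay above the highest control. The log2 fold changes were 2.25 ± 0.34 (SE, adjusted p = 1.99e-07, edgeR), 1.89 ± 0.34 (1.17e-05) and 1.86 ± 0.33 (5.75e-06) in the same order of groups. The low counts make these folds the least precise of the members.

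Tlr6, the partner of Tlr2 for diacylated lipopeptides, had smaller fold changes. It ranged from 0.0518 to 1.05 CPM in ctrl-PBS mice (median 0.612, with 3 mice at 3 counts or fewer), from 0.628 to 1.48 in TDP-PBS (median 0.909), from 0.370 to 1.47 in TDP-10+12 (median 0.744) and from 0.348 to 1.61 in TDP-15 (median 1.09). Only 2 of 10, 2 of 10 and 6 of 12 mice lay above the highest control. Its log2 fold change was 0.67 ± 0.27 (adjusted p = 0.0364, edgeR) in TDP-PBS and 0.74 ± 0.25 (0.0141) in TDP-15, while the value of 0.45 ± 0.27 in TDP-10+12 did not pass (0.19). The TDP-PBS call was lost with no filter on low counts (adjusted p = 0.0701) and without the 3 mice with high Ngp (0.097) or the 4 with high Ttr (0.0735).

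Because Tlr1 and Tlr6 are paralogs, their levels were also compared mouse by mouse. The ctrl-PBS mouse with the highest Tlr1 (animal 41, 12 counts) had the lowest Tlr6 of its group (1 count), and the TDP-PBS mouse with the highest Tlr1 (animal 217) had the lowest Tlr6 of its group as well. This did not hold in the vaccinated groups. The TDP-10+12 mouse with the highest Tlr1 (animal 301) had Tlr6 at 0.791 CPM, above the group median of 0.744. That of TDP-15 (animal 126) had Tlr6 at 1.17 CPM, above the median of 1.09. Over the 32 rNLS8 mice, centred on their group means, r was -0.312 (permutation p = 0.0831) and rho was -0.354 (permutation p = 0.0478), with r = -0.277 without the 2 mice farthest from the median of Tlr6. In the 17 ctrl-PBS mice r was -0.0824 (permutation p = 0.754) and rho 0.0564 (permutation p = 0.833), with r = 0.354 without the 2 farthest. These 2 relations were computed after the values had been seen and were not adjusted. The sum of both genes, which is free of any split between them, was 0.792 ± 0.335 CPM (SD, n = 17) in the controls. It reached 1.88 ± 0.354 CPM (SD, n = 10) in TDP-PBS, with 9 of 10 TDP-PBS mice above every control (two-sided permutation p = 3e-05 on the log2 scale). It was 1.53 ± 0.429 CPM in TDP-10+12 (n = 10, permutation p = 0.00068) and 1.70 ± 0.551 CPM in TDP-15 (n = 12, permutation p = 4e-05). The sum uses the same counts as the fold changes of both genes above and is therefore no separate test of them. Its p-values were not adjusted, and no share over all genes stands beside them.

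The lipopolysaccharide receptor Tlr4 and its co-receptor Cd14 rose in all 3 rNLS8 groups. Tlr4 ranged from 0.367 to 1.47 CPM in ctrl-PBS mice (median 0.777), from 1.0 to 2.82 in TDP-PBS (median 1.82), from 1.06 to 2.34 in TDP-10+12 (median 1.58) and from 1.27 to 2.94 in TDP-15 (median 1.74). Of the 32 rNLS8 mice, 22 lay above the highest control and all lay above the control median. Cd14, a GPI-anchored protein that hands lipopolysaccharide to Tlr4, ranged from 0.824 to 2.52 CPM in ctrl-PBS (median 1.29), from 1.59 to 4.06 in TDP-PBS (median 3.02), from 1.73 to 3.95 in TDP-10+12 (median 2.51) and from 1.92 to 6.74 in TDP-15 (median 3.29). All 32 rNLS8 mice were above the control median, and 21 of them above the highest control, which was the neutrophil-rich animal 137. The log2 fold changes of Tlr4 were 1.22 ± 0.19 (SE, adjusted p = 4.57e-07, edgeR), 1.05 ± 0.19 (1.06e-05) and 1.22 ± 0.18 (1.41e-07) in TDP-PBS, TDP-10+12 and TDP-15. Those of Cd14 were 0.99 ± 0.18 (8.60e-06), 0.81 ± 0.18 (0.00024) and 1.21 ± 0.17 (3.93e-08).

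Of the endosomal receptors, Tlr7 separated most fully in TDP-PBS mice. It ranged from 1.1 to 2.61 CPM in ctrl-PBS mice (median 1.96) and from 3.21 to 5.02 in TDP-PBS (median 4.0), without overlap. It ranged from 1.76 to 5.83 CPM in TDP-10+12 (median 3.59, 8 of 10 above the controls) and from 1.59 to 5.93 in TDP-15 (median 3.49, 11 of 12 above the controls). Its fold changes on the log2 scale were 1.08 ± 0.15 (SE, adjusted p = 3.17e-08, edgeR), 0.90 ± 0.15 (2.24e-06) and 0.93 ± 0.14 (2.89e-07).

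Tlr9, the receptor for CpG DNA, ranged from 1.0 to 2.09 CPM in ctrl-PBS mice (median 1.44), from 1.44 to 4.28 in TDP-PBS (median 3.02), from 1.83 to 3.14 in TDP-10+12 (median 2.51) and from 1.74 to 7.10 in TDP-15 (median 3.06). All but 4 of the 32 rNLS8 mice lay above every control. Its log2 fold changes were 1.04 ± 0.15 (SE, adjusted p = 1.35e-07, edgeR), 0.76 ± 0.16 (7.23e-05) and 1.12 ± 0.15 (5.91e-09). Tlr13, which recognises bacterial ribosomal RNA and has no human counterpart, ranged from 0.764 to 2.22 CPM in ctrl-PBS (median 1.51), from 1.97 to 4.30 in TDP-PBS (median 3.60), from 1.20 to 4.60 in TDP-10+12 (median 3.21) and from 1.85 to 6.59 in TDP-15 (median 3.24). In this gene 24 of 32 rNLS8 mice exceeded every control. For Tlr13 they were 1.15 ± 0.17 (adjusted p = 3.25e-07, edgeR), 0.96 ± 0.18 (1.37e-05) and 1.13 ± 0.17 (1.33e-07).

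Tlr3, the receptor with the highest level per exon length, had the smallest fold changes among those called. It ranged from 9.38 to 14.2 CPM in ctrl-PBS mice (median 11.2), from 9.68 to 19.4 in TDP-PBS (median 15.4), from 11.4 to 17.4 in TDP-10+12 (median 13) and from 11.2 to 19.3 in TDP-15 (median 14.2). The groups overlapped, with 15 of 32 rNLS8 mice above the highest control. Against the controls, its log2 fold changes were 0.33 ± 0.08 (SE, adjusted p = 0.000894, edgeR), 0.22 ± 0.08 (0.0324) and 0.34 ± 0.08 (0.000382). The TDP-10+12 call was lost with no filter on low counts (adjusted p = 0.0519).

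The adaptor Myd88 did not pass in any comparison. It ranged from 3.21 to 5.0 CPM in ctrl-PBS mice (median 3.94), from 3.60 to 5.27 in TDP-PBS (median 4.39), from 3.01 to 7.96 in TDP-10+12 (median 4.53) and from 3.25 to 7.10 in TDP-15 (median 4.36). The groups overlapped throughout, and 9 of 32 rNLS8 mice lay above the highest control. The log2 fold changes were 0.15 with a 95% interval from -0.07 to 0.37 (adjusted p = 0.283, edgeR), 0.23 from 0.01 to 0.45 (0.0829) and 0.19 from -0.02 to 0.40 (0.131). In TDP-10+12 it passed without animal 242 (0.30, adjusted p = 0.0204) and without the 3 mice with high Ngp (0.29, adjusted p = 0.0351), whereas without animal 301, the highest of the group, it was at 0.13 (adjusted p = 0.324). Acaa1a, the peroxisomal thiolase whose exons overlap it on the other strand, was at 16.5 ± 3.85 CPM (SD, n = 17) in the controls and at 13.5 ± 3.78 (n = 10) in TDP-PBS mice, with a log2 fold change of -0.29 (adjusted p = 0.0513, edgeR). In TDP-10+12 it was lower (-0.31, adjusted p = 0.0398), and in TDP-15 it was at -0.25 (0.0728). Its part in the Myd88 counts was not tested.

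**Figure D2:**
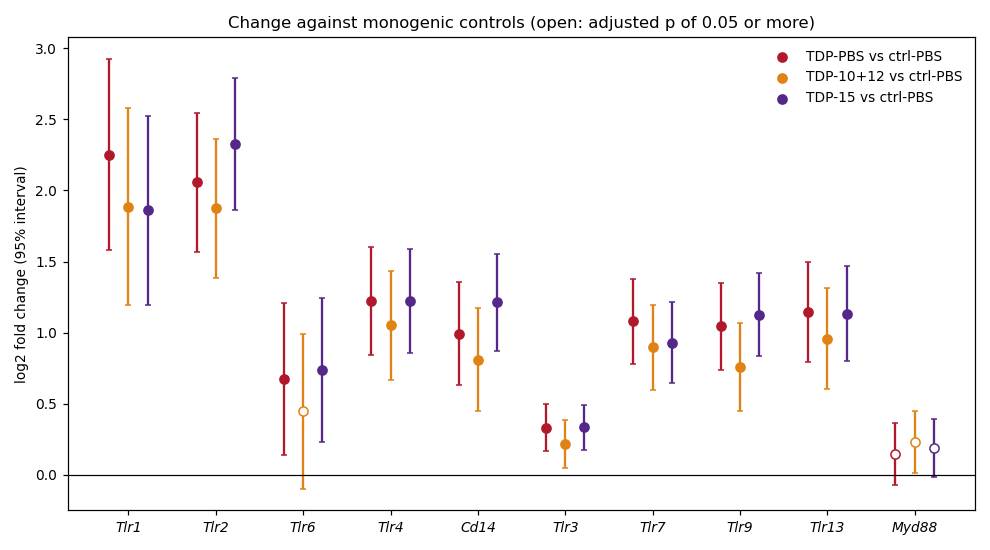
Log2 fold change (y axis) of each member in TDP-PBS, TDP-10+12 and TDP-15 mice against the 17 ctrl-PBS mice, with 95% intervals from the edgeR fit. Filled points had an adjusted p under 0.05, open points did not, and the open points are Myd88 in each comparison and Tlr6 in TDP-10+12.

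The receptors and the adaptor were also set side by side as the log2 ratio of each member to Myd88 in the same mouse. The ratio of Tlr2 to Myd88 was -2.46 ± 0.805 (SD, n = 17) in ctrl-PBS and -0.592 ± 0.454 (SD, n = 10) in TDP-PBS, a difference of 1.87 (two-sided permutation p = 1e-05, the smallest these permutations can give). For Tlr7 it rose by 0.923 (permutation p = 1e-05), with 9 of 10 TDP-PBS mice above every control. The ratio of Tlr3 to Myd88 differed by 0.17 (permutation p = 0.107) and that of Tlr6 by 0.636 (permutation p = 0.0547). The other 5 ratios, of Tlr1, Tlr4, Tlr9, Tlr13 and Cd14, were higher in TDP-PBS by 0.814 to 1.69, with permutation p-values from 1e-05 to 0.00014. These 9 ratios were computed after the values had been seen, and their p-values were not adjusted. By then Myd88 was known to pass in no comparison, and the ratios use the same counts as the fold changes above. They are therefore no separate test of those changes, and no share over all genes stands beside them.

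Levels of different genes can be compared per kilobase of exon. In ctrl-PBS mice the order was Tlr3 (2.21 ± 0.246 CPM per kb, SD), Myd88 (1.57 ± 0.215), Cd14 (0.859 ± 0.276), Tlr7 (0.465 ± 0.108), Tlr9 (0.425 ± 0.0875), Tlr13 (0.358 ± 0.0943), Tlr2 (0.239 ± 0.103), Tlr6 (0.163 ± 0.0859), Tlr4 (0.142 ± 0.0591) and Tlr1 (0.0553 ± 0.0444). The first 3 were each separated from the next by more than their SDs, and from Tlr7 downwards neighbours overlapped. In TDP-PBS mice Tlr3 was again highest (2.79 ± 0.528 CPM per kb), Cd14 (1.71 ± 0.476) was within 1 SD of Myd88 (1.74 ± 0.251), and Tlr2 stood at rank 4 with 1.0 ± 0.283 instead of rank 7, overlapping with Tlr7, Tlr9 and Tlr13. Tlr4 (0.333 ± 0.111), Tlr1 (0.270 ± 0.131) and Tlr6 (0.261 ± 0.0739) formed the lower end. In TDP-15 mice the mean of Cd14 (1.99 ± 0.811 CPM per kb) exceeded that of Myd88 (1.79 ± 0.418), within the spread.

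**Figure D3:**
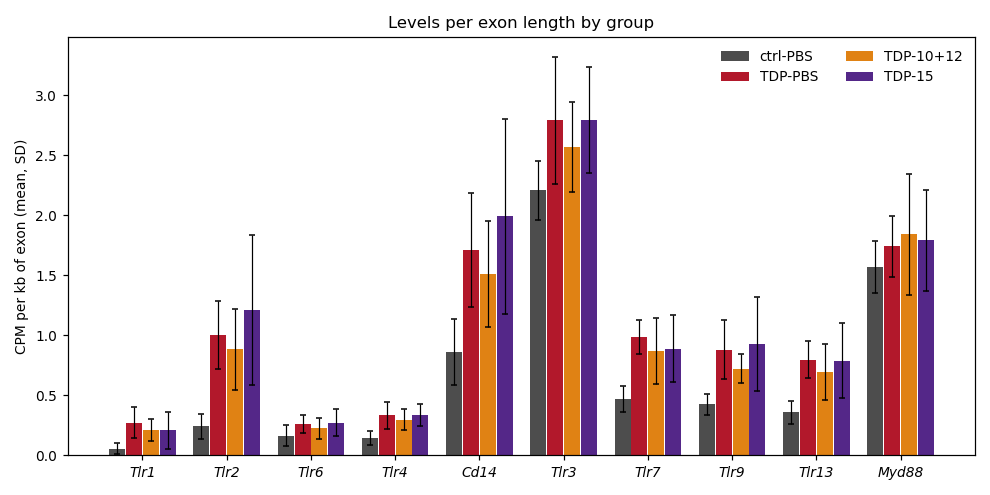
Mean level per kilobase of exon (y axis, CPM per kb, from 0) of each member by group, with SD bars, for 17, 10, 10 and 12 mice. Tlr3 has the highest mean in every group, and Tlr2 moves from 0.239 in ctrl-PBS to 1.0 in TDP-PBS.

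Vaccination was compared among the rNLS8 mice. No member passed between TDP-10+12 and TDP-PBS, between TDP-15 and TDP-PBS, or between TDP-10+12 and TDP-15, where 0% of the 18220 genes passed each time (edgeR). At an unadjusted p under 0.05 there were 953, 552 and 1244 genes and 0, 0 and 2 members, and DESeq2 called 0, 0 and 2 genes. In TDP-10+12 against TDP-PBS, 9 of the 10 members had a negative log2 fold change (median -0.18, against -0.00294 over all genes). These 9 ran from -0.37 for Tlr1 (95% interval -1.04 to 0.31) to -0.12 for Tlr3 (-0.30 to 0.07). Myd88 was at 0.08 (-0.16 to 0.33), or at -0.03 without TDP-10+12 animal 301. The 10 values come from the same mice and are not independent. Over the alternatives, Tlr2 ran from -0.255 to -0.0649 and Tlr4 from -0.223 to -0.0448, and no member passed. In TDP-15 against TDP-PBS the median was 0.02, and Tlr2 was at 0.27 (-0.21 to 0.75) and Tlr1 at -0.39 (-1.04 to 0.25). Without TDP-15 animal 126, Tlr2 was at 0.11, Tlr1 at -0.62 and Tlr9, at 0.08 with it, turned to -0.08. The members with an unadjusted p under 0.05 were Tlr9 (-0.37, interval -0.69 to -0.04, p = 0.0278, adjusted p = 0.668) and Cd14 (-0.40, interval -0.78 to -0.02, p = 0.0384, adjusted p = 0.71), both lower in TDP-10+12 than in TDP-15. The CpG oligonucleotide, a ligand of Tlr9, was given with both peptide vaccines alike, and its part in the Tlr9 levels was not tested. Against TDP-PBS, Tlr9 was at -0.29 (-0.63 to 0.05) in TDP-10+12 and 0.08 (-0.24 to 0.40) in TDP-15. Without TDP-15 animal 126 the difference of Tlr9 between the vaccinated groups was -0.20 (adjusted p = 0.923, edgeR) and that of Cd14 was -0.27 (0.922).

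Single mice set the extremes of several members at once. TDP-15 animal 126 was the highest of its group for 8 members (Tlr1, Tlr2, Tlr3, Tlr4, Tlr9, Tlr13, Cd14 and Myd88). Its Tlr2 was 8.01 CPM and its Tlr9 7.10 CPM, against group medians of 3.12 and 3.06. TDP-10+12 animal 242 was the lowest of its group for 6 members (Tlr1, Tlr2, Tlr3, Tlr7, Tlr13 and Myd88) and was the only rNLS8 mouse whose Tlr2 lay within the range of the controls. Animal 301 of the same group was the highest for 4 members (Tlr1, Tlr7, Tlr13 and Myd88). With any of these mice left out, the number of members called against ctrl-PBS stayed between 8 and 9 in each comparison.

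Females and males were set against each other over all 49 mice with group in the model. No member passed (edgeR, smallest unadjusted p = 0.078, for Tlr2), while 0.0933% of all genes did. The X-linked Tlr7 was at 1.89 ± 0.441 CPM (SD, n = 10) in female and 1.91 ± 0.472 (n = 7) in male ctrl-PBS mice, and at 3.65 ± 1.04 (n = 15) in female and 3.78 ± 0.952 (n = 17) in male rNLS8 mice. For Tlr2 the levels were 0.797 ± 0.291 CPM in female and 0.609 ± 0.323 in male controls, and 3.39 ± 1.22 and 2.91 ± 1.53 in female and male rNLS8 mice. For the genotype by sex interaction, with all rNLS8 groups pooled, no member passed (edgeR, smallest unadjusted p = 0.209). Of all genes 0% did, with 607 genes at an unadjusted p under 0.05.

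Since the receptors are mainly microglial transcripts, the 10 microglia markers of a fixed list were measured beside them. In TDP-PBS mice 6 of 10 were higher than in ctrl-PBS mice and none was lower (median log2 fold change 0.36). Itgam rose by 0.46, Tmem119 by 0.46, Csf1r by 0.43, Siglech by 0.36 and Cx3cr1 by 0.36, and the homeostatic receptor P2ry12 was at -0.09 (adjusted p = 0.206). The summed level of the 10 markers was 269 to 348 CPM in ctrl-PBS, 328 to 431 in TDP-PBS, 285 to 420 in TDP-10+12 and 285 to 488 in TDP-15. In TDP-10+12 and TDP-15, 6 were higher and 1 was lower (medians 0.25 and 0.34). The log2 ratio of each gene to the mean log2 level of the 10 markers in the same mouse was then compared between groups by permutation, with adjustment over all 18220 genes.

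Against the controls, 7 of the 10 members were higher on this scale in TDP-PBS, beside 4.65% of all genes, and none was lower. The members that did not pass were Tlr3 (0.0089, adjusted p = 0.932), Tlr6 (0.475, adjusted p = 0.179) and Myd88 (-0.161, adjusted p = 0.126). Tlr2 rose most against the markers, from -4.99 ± 0.734 (SD, n = 17) to -3.28 ± 0.36 (n = 10), by 1.71 (adjusted p = 5.16e-05, permutation), with all 10 mice above every control. Tlr1 rose by 1.53, Tlr4 by 0.849, Tlr13 by 0.814, Tlr7 by 0.762, Tlr9 by 0.662 and Cd14 by 0.653. In TDP-10+12 and in TDP-15 the same 7 members were higher and none was lower, beside 6.78% and 6.26% of all genes. Using only Aif1, Csf1r and Itgam as markers also left 7 members higher in each group, with 1 member lower in TDP-PBS (Myd88, the lowest at -0.253). These ratios use the same counts as the fold changes above, so they are no separate test of those changes. The mean log2 level of the 10 markers was itself higher than in ctrl-PBS by 0.304 in TDP-PBS, 0.201 in TDP-10+12 and 0.263 in TDP-15. Members with larger fold changes therefore stay higher on this scale, which does not measure a level per microglial cell.

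**Figure D4:**
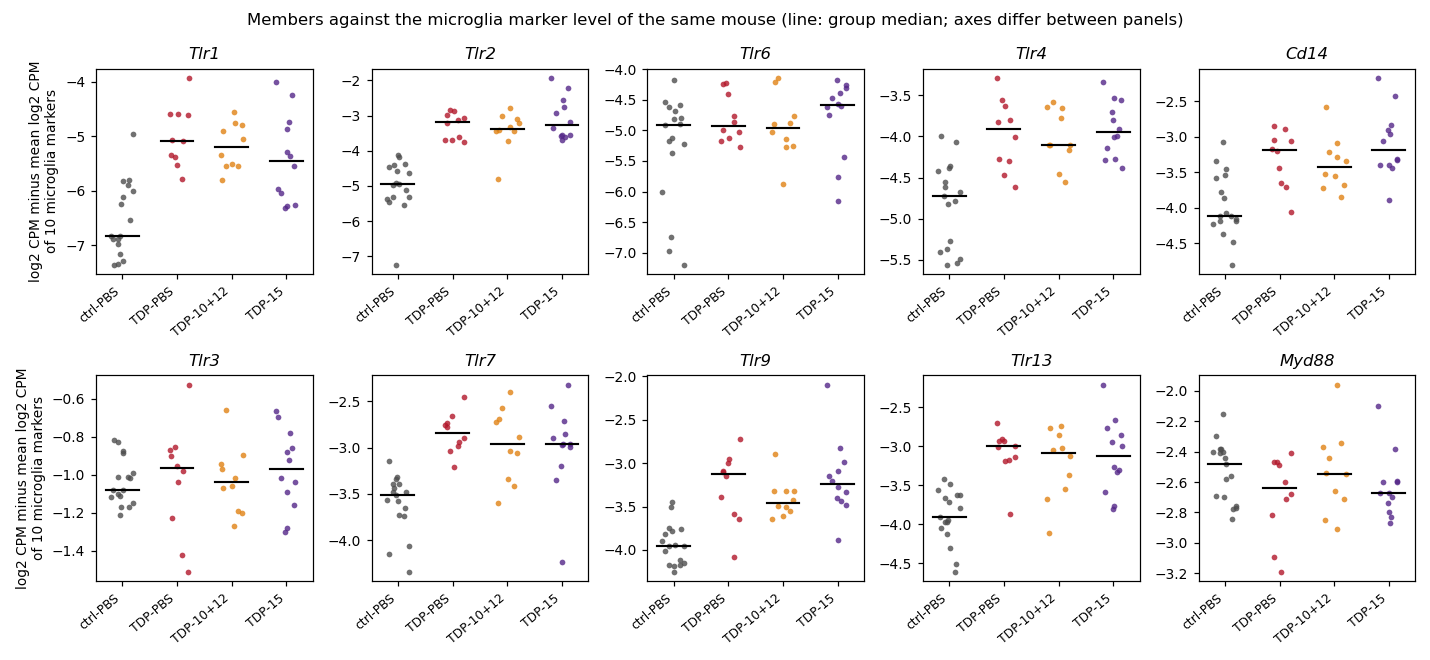
Log2 level of each member minus the mean log2 level of 10 microglia markers in the same mouse (y axis, log2 units, scales differ between panels), with 1 point per mouse in 4 groups and a line at the median. The 10 TDP-PBS mice lie above all 17 ctrl-PBS mice for Tlr2, whereas the groups overlap for Tlr3, Tlr6 and Myd88.

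Within the rNLS8 mice, the members were related to the microglia marker level after centring each on its group mean. Over 32 mice r was positive for all 10 members, from 0.0292 for Tlr6 to 0.58 for Tlr2 (median 0.454, against -0.00292 over all genes). The r of 8 members had an unadjusted permutation p under 0.05, and none passed after adjustment over the 18220 genes, of which 0.681% passed with a positive r. The share of all genes at that unadjusted threshold is not given, so nothing is read from the count of 8. Tlr2 came nearest (permutation p = 0.00047, adjusted p = 0.0591), with rho = 0.48 (permutation p = 0.00605, adjusted p = 0.293), and its r fell to 0.404 without the 2 mice farthest from the median marker level. For Myd88 r was 0.528 (permutation p = 0.0019, adjusted p = 0.126), rho was 0.46 (permutation p = 0.00908, adjusted p = 0.339) and r without the 2 farthest mice was 0.363. With only Aif1, Csf1r and Itgam as markers, 9 members passed, with r up to 0.736 for Tlr9, as did 3.53% of all genes. In the 17 ctrl-PBS mice no member passed, and r lay between -0.181 for Cd14 and 0.606 for Tlr3 (permutation p = 0.0105, adjusted p = 0.879, rho = 0.613 with permutation p = 0.0106 and adjusted p = 0.692, r = 0.55 without the 2 farthest mice).

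Markers of other cells were measured beside the members. Of 5 border macrophage markers, 3 were higher in TDP-PBS (Lyve1 by 1.28, Cd163 by 0.68 and F13a1 by 0.56), with summed levels of 3.73 to 7.41 CPM in ctrl-PBS and 4.62 to 13.4 CPM in TDP-PBS. Of 4 monocyte markers, 2 were tested and Plac8 was higher, by 2.15, from a ctrl-PBS mean of 0.146 CPM near the limit of detection. The monocyte list summed to 0.77 to 8.44 CPM in ctrl-PBS and 1.28 to 8.90 CPM in TDP-PBS. Neutrophil markers summed to 0.204 to 48.8 CPM in ctrl-PBS and 0.289 to 18.0 CPM in TDP-PBS, neither of the 2 tested was called in TDP-PBS, both were lower in TDP-15, and the median of the defining marker Ly6g was 0 in every group. B cell markers summed to at most 2.42 CPM in any mouse, and of 5 T cell markers Cd3d and Cd3g had medians of 0 in every group. The T cell list summed to 1.89 to 35.4 CPM in ctrl-PBS and 3.95 to 14.8 CPM in TDP-PBS, almost all of it Cd4. Cd4, the one gene of the list tested, fell by 1.19 on the log2 scale in TDP-PBS. The ctrl-PBS and TDP-PBS means were 0.00617 and 0.00966 CPM for Cd3d and 0.0793 and 0.0501 for Cd3e. They were 0.0153 and 0.04 for Cd3g and 0.0362 and 0.0892 for Cd8a, all under the limit of detection. The sum therefore does not measure T cells. Dendritic cell markers summed to 6.28 to 10.7 CPM in ctrl-PBS and 6.18 to 8.13 in TDP-PBS, almost all of it Flt3, and none was called in TDP-PBS. The astrocyte gene Gfap was higher in TDP-PBS by 1.64, and Gja1, also of 5 astrocyte markers, was lower. Red cell markers summed to 30.4 to 513 CPM in ctrl-PBS and 17.0 to 470 CPM in TDP-PBS with none of 5 called, and of 4 endothelial markers 1 was higher in TDP-PBS. None of 4 oligodendrocyte markers was called in any group, and of 6 cortical neuron markers 1 was higher and 2 were lower in TDP-PBS. None of 3 choroid plexus markers was called in TDP-PBS, whereas 3 were higher in TDP-10+12 and 1 in TDP-15. The part of any of these cells in the members' levels was not tested.

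The genes whose level followed each member most closely over the 32 rNLS8 mice, centred on group means, were ranked by Pearson's r among all genes tested. For Tlr2 they were C3ar1 (r = 0.849), Cd22 (0.822) and Mpeg1 (0.821), which encode a complement receptor, a sialic acid receptor and a perforin-like protein of macrophages. For Tlr13 they were Cd53 (0.822), Ctsz (0.77) and Rasal3 (0.767), and for Tlr7 Sh3bp2 (0.766), Inpp5d (0.758) and Golm1 (0.725). Tlr3 was followed by the interferon-induced genes Gbp7 (0.785), Parp9 (0.775) and Ddx58 (0.774), and Tlr1 by the chemokine gene Cxcl10 (0.765), Gm31255 (0.753) and Zfp33b (0.744). For Tlr9 they were Trim25 (0.792), H2-Q4 (0.791) and Mmp14 (0.79), for Tlr4 Cd151 (0.789), 2810459M11Rik (0.779) and Nfam1 (0.739), and for Cd14 they included Arrdc2 (0.785) and Spsb1 (0.783). Myd88 was most like Ly86 (0.78), Msn (0.769) and Ccl3 (0.74). Tlr6 was most like Nap1l4 (0.683), Erbb3 (0.67) and Ift80 (0.645), the lowest values among the members. These are descriptions over mice of 3 groups that share library depth and tissue composition, and no test was made of them. Over all 30 pairs of a member and a gene so ranked, rho in the rNLS8 mice ran from 0.559 (Mmp14 with Tlr9) to 0.814 (Inpp5d with Tlr7). In the 17 ctrl-PBS mice, which the ranking did not use, r ran from -0.269 (Ly86 with Myd88) to 0.566 (Inpp5d with Tlr7).

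The rest of the pathway was read from 9 lists with 76 genes, of which 67 were tested. In TDP-PBS against ctrl-PBS 31 of them were higher and 9 lower (median log2 fold change 0.16), in TDP-10+12 30 were higher and 10 lower (0.19), and in TDP-15 33 were higher and 15 lower (0.15). Beside these and the counts of each list stand the shares of all genes called higher and lower, 21.9% and 21.6% in TDP-PBS, 20.8% and 20% in TDP-10+12, and 23.6% and 23.2% in TDP-15. Among the other receptors, the flagellin receptor Tlr5 was at 0.446 ± 0.261 CPM (SD, n = 17) in ctrl-PBS and 0.443 ± 0.203 (n = 10) in TDP-PBS, and Tlr12 at 1.11 ± 0.565 and 1.39 ± 0.549, and neither passed in any of the 3 comparisons. Tlr8 ranged from 0 to 8 counts in ctrl-PBS and from 1 to 10 in rNLS8 mice, and Tlr11 had at most 4 counts in any mouse, so both were under the filter.

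**Figure D5:**
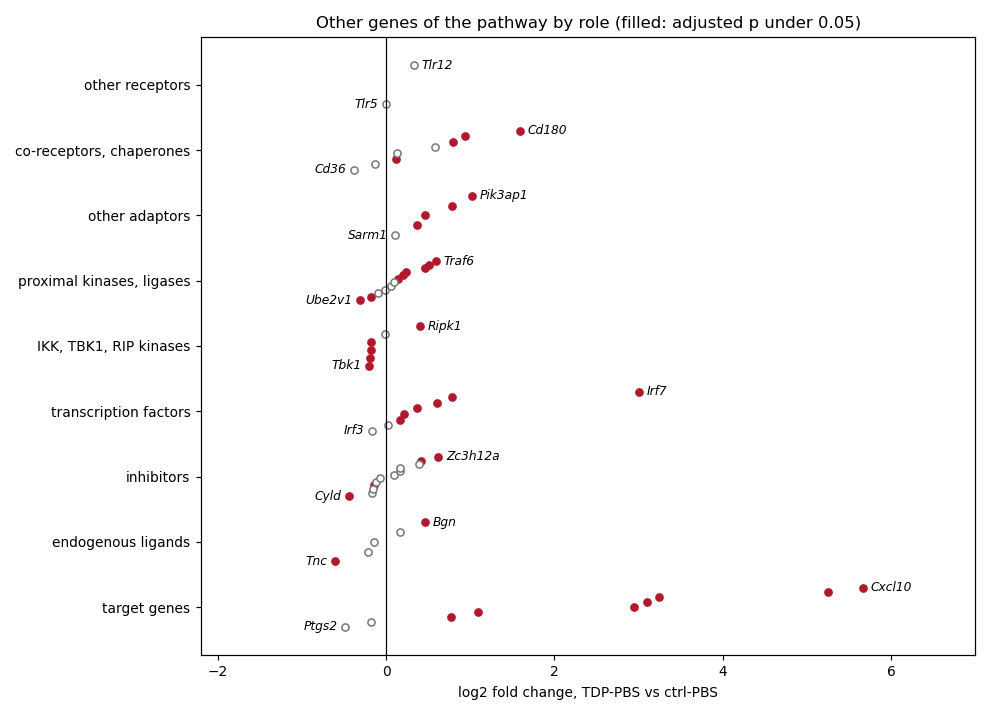
Log2 fold change in TDP-PBS against ctrl-PBS (x axis) of the 67 other pathway genes tested, grouped by role (y axis), with 1 point per gene. Filled points had an adjusted p under 0.05, and the genes at each end of a list are named, from Tnc at -0.60 to Cxcl10 at 5.66.

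Of 8 co-receptors and chaperones, 4 were higher in TDP-PBS and none was lower. Cd180, a Toll-like receptor homologue that lacks a TIR domain, rose by 1.59 from 1.87 ± 0.532 CPM (SD, n = 17) to 5.62 ± 1.25 CPM (n = 10), and its partner Ly86 (MD-1) by 0.94. Unc93b1, which carries the endosomal receptors to their compartment, rose by 0.79 and ranged from 8.24 to 14.4 CPM in ctrl-PBS and from 15.4 to 24.8 CPM in TDP-PBS, without overlap. Ly96 (MD-2), the partner of Tlr4, was at 0.13 (adjusted p = 0.681), and Cd36 had the lowest value at -0.38 (adjusted p = 0.403). In TDP-10+12 5 were higher and none lower, and in TDP-15 5 were higher and 1 was lower, the chaperone Hsp90b1 (-0.18, adjusted p = 0.00907).

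All 5 other adaptors had positive changes, and 4 passed in TDP-PBS. Pik3ap1 (BCAP), which links the receptors to PI3-kinase, rose by 1.02, the TRIF-related adaptor Ticam2 by 0.79, Ticam1 by 0.47 and the Myd88 bridge Tirap by 0.37. Sarm1 was at 0.11 (adjusted p = 0.0595). In TDP-10+12 2 of the 5 passed and in TDP-15 all 5 did. Of 12 proximal kinases and ligases, 6 were higher and 2 lower in TDP-PBS, 5 and 3 in TDP-10+12, and 6 and 3 in TDP-15. The ubiquitin ligase Traf6 rose most, by 0.59, from 14.7 to 21.1 CPM in ctrl-PBS to 22.5 to 31.7 CPM in TDP-PBS without overlap, and Ube2v1, a subunit of the ubiquitin-conjugating enzyme that works with Traf6, fell by 0.31.

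The kinases below this complex moved little. Of 6, 1 was higher and 4 were lower in TDP-PBS, with Ripk1 at 0.41 and Tbk1, Chuk, Ikbkb and Ikbkg between -0.20 and -0.18. In TDP-10+12 and in TDP-15, 1 was higher and 3 were lower. Of 8 transcription factors 6 were higher and none lower in TDP-PBS, and 6 were higher and 1 lower (Irf3) in both other groups. Irf7, the interferon regulatory factor that Tlr7 and Tlr9 activate through Myd88, rose by 3.01, from 1.76 to 7.65 CPM in ctrl-PBS to 15.9 to 71.7 CPM in TDP-PBS. Irf3 was at -0.17 in TDP-PBS (adjusted p = 0.0954).

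Among the 12 inhibitors, 2 were higher and 2 lower in TDP-PBS, beside 21.9% and 21.6% of all genes. With so few genes, nothing particular to the inhibitors is read from these counts. The RNase gene Zc3h12a at 0.62 and the deubiquitinase Cyld at -0.44 were the extremes. In TDP-10+12 2 were higher and 3 lower, and in TDP-15 1 was higher and 3 were lower. Of 7 endogenous ligands 5 were tested, and in TDP-PBS the proteoglycan Bgn was higher by 0.46 and Tnc was at -0.60 (adjusted p = 0.036). In TDP-10+12 2 were higher, and in TDP-15 2 were higher and 3 lower. Of 14 target genes 9 were tested, and 7 were higher in each of the 3 groups, while Ptgs2 was lower in TDP-15 (-0.65, adjusted p = 0.0210, edgeR). In TDP-PBS the chemokine gene Cxcl10 rose by 5.66, from 0 to 0.621 CPM in ctrl-PBS to 2.41 to 16.1 CPM, Ccl5 by 5.25, Ccl2 by 3.24, Ccl3 by 3.09, Tnf by 2.94, Il1a by 1.09 and Cd86 by 0.77. The ctrl-PBS means of Cxcl10 (0.134 CPM), Ccl2 (0.127), Ccl5 (0.11) and Tnf (0.0946) were under the limit of 3 counts. The size of these folds is therefore imprecise. Ptgs2 was at -0.49 (adjusted p = 0.11). Il1b, Il6, Il12b, Ifnb1 and Cd40 were under the filter. Many of these genes also respond to interferon or tumour necrosis factor.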

How the data were processed

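RNA from the neocortex of 49 mice was sequenced as mRNA libraries with paired-end reads. The authors deposited 1 table of counts per gene, as whole numbers without normalization, and their processing notes name HISAT2, Bowtie2, RSEM and the build mm10, with versions, strand setting and annotation not given in the sources used here. Groups came from the labels, and every column was matched to 1 mouse (0 unmatched).

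Counts were tested with edgeR 4.0.16 (R 4.3.3), using TMM scaling, the quasi-likelihood test, all 49 mice and group as the term. Genes passed filterByExpr (minimum count 10, minimum total 15), which left 18220 of 45252. Benjamini-Hochberg adjustment ran over these genes, with a threshold of 0.05. The sex difference was fitted in the same way with group and sex as terms. The genotype by sex interaction was fitted with all rNLS8 groups, vaccinated or not, pooled into a single genotype. CPM used TMM library sizes, and log2 CPM a prior count of 2. Ratios and correlations across mice were tested by two-sided permutation (100000 draws, so 1e-05 is the smallest p they can give). Those with the microglia marker level were adjusted over all genes tested and not over the members alone as first planned. The ratios to Myd88, the relation of Tlr1 to Tlr6 and the sum of both were not adjusted. The test script was tested on simulated data with known changes. Totals of 17775738 to 21033608 counts limit the precision of members near 1 CPM. Each mouse is a separate animal.

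The members and lists were chosen with earlier results of these data known. By rule, all 10 members were named, all 4 other receptors, the genes with the largest and the smallest change of each pathway list in TDP-PBS, the 3 genes most like each member, and marker genes by list. Other pathway genes were named after their values were seen. Some genes that the rule would name are not reported here. Alternatives were DESeq2 1.42.0, its size factors in edgeR, other filters, fits on the 2 groups compared, other marker levels and prior counts, and leaving out single mice. Sequences came from RefSeq (GRCm38.p6).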

Additional observations from a re-analysis of the deposited data

Results flagged for a closer look

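The highest Myd88 level of the TDP-10+12 group, 7.96 CPM in animal 301, stood apart from the other 9 mice, the next of which was at 5.24 CPM. The gap was 0.55 of the group's range, above Dixon's critical value of 0.466 for 10 mice. It was the one value so marked among 20 combinations of a member and a group of 10 mice, and chance marks about 1 in 20. The same animal was the highest of its group for Tlr1, Tlr7 and Tlr13.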

How the results depend on the processing

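Over 846 values of single members under alternatives, 807 kept their direction and their side of the threshold, 4 were no longer past it, 12 came to pass it and 23 changed sign. None of the 23 was in a comparison of an rNLS8 group with ctrl-PBS, and none passed with or without the alternative. Of the 12, 10 were correlations with the microglia marker level. When at least 10 counts were required in every mouse, 6 members were left and 5 of them passed in each of the 3 comparisons with ctrl-PBS, since fewer genes were tested. Among the rNLS8 groups, with no filter on low counts, 1 gene passed in TDP-10+12 against TDP-PBS and 1 in TDP-10+12 against TDP-15. In TDP-10+12 against TDP-15, 2 genes passed with only the 2 groups in the fit and 2 with DESeq2. The cause of these was not tested. The log2 fold changes that turned with a single mouse left out are given by their range over animals 126, 242 and 301. In TDP-15 against TDP-PBS, they ran from -0.0407 to 0.00174 for Tlr3, -0.0778 to -0.000215 for Tlr4, -0.0846 to 0.079 for Tlr9 and -0.0319 to 0.0392 for Myd88. In TDP-10+12 against TDP-15, they ran from -0.102 to 0.253 for Tlr1, -0.141 to 0.0443 for Tlr7 and -0.0687 to 0.115 for Myd88, and in TDP-10+12 against TDP-PBS from -0.0295 to 0.14 for Myd88. In TDP-15 against TDP-PBS, Tlr4 turned to -0.00193 with upper-quartile normalization, Tlr3 to -0.000623 under that minimum of 10 counts and Tlr6 to -0.0211 with limma-voom. Tlr7 turned to 0.0183 in TDP-10+12 against TDP-15 without the 4 mice with high Ttr. With only the 27 PBS-treated mice, the female against male value turned to -0.0249 for Tlr3, 0.0112 for Tlr7, 0.0711 for Tlr13 and 0.0587 for Cd14, and the genotype by sex value to 0.284 for Tlr4 and 0.088 for Tlr7. The genotype by sex value of Tlr4 also turned to 0.00121 with DESeq2 and 0.00312 with DESeq2 size factors in edgeR. The cause of these turns was not tested. No paired analysis was possible because the animal numbers in the labels are not shared between groups. The mice left out singly or for high Ngp or Ttr were chosen after seeing the data. Depth limits Tlr1 and Tlr6, which had 3 counts or fewer in 9 and 3 of the 17 ctrl-PBS mice.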
